A study of Mus musculus with 36 samples.

Results

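The measurements concern 10 genes of the neutrophil's later granules and of calprotectin, S100a8, S100a9, Ngp, Camp, Ltf, Lcn2, Mmp8, Mmp9, Chil3 and Cd177, read in the spleens of individual mice.
They were taken by name: every probe set that names only one of these genes was used, which gave 11 probe sets (10 genes among 18193 named genes, with 2 probe sets for Mmp9). All 11 passed the filter on low values. One more probe set names Chil4 and Chil3 together and was not used.
The study measured total RNA from the spleens of 36 F2 mice at 4 months, 18 with arthritis (ART) and 18 without (NON), 1 Affymetrix array per mouse. Its title describes arthritic mice that lack the interleukin 1 receptor antagonist, but the labels give no genotype, sex or strain for any mouse and name no treatment. Arthritis status is the label that separates the groups. The study's stated purpose was to look for subpopulations of arthritic mice, and the questions addressed here are how far these 10 genes vary from mouse to mouse within a group, whether they vary together, and whether ART and NON spleens differ.

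Neutrophils make their granules in order as they mature in bone marrow and, in the mouse, also in the spleen. Primary granules, filled with myeloperoxidase and serine proteases, form in promyelocytes. Secondary (specific) granules with lactoferrin, cathelicidin and lipocalin 2 form in myelocytes, and tertiary granules with gelatinase form later still. The transcripts of the secondary granule proteins are largely lost again in the mature circulating cell. S100A8 and S100A9 pair into calprotectin, a calcium-binding protein that fills the neutrophil cytosol, withholds zinc and manganese from microbes and, once released, signals through TLR4. C/EBP factors, C/EBP epsilon above all, and PU.1 drive the genes of the later granules.

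Some of the genes are neighbours in the mouse genome (build GRCm38.p6). S100a8 and S100a9 lie within 26.7 kb on chromosome 3, and Camp, Ngp and Ltf lie within 1.195 Mb on chromosome 9, which also holds Mmp8. Chil3 is on chromosome 3, Lcn2 and Mmp9 are on chromosome 2, and Cd177 is on chromosome 7.
RefSeq promoter windows of 300 bases (250 before and 50 after the annotated start) were at hand for 9 of the 10 genes. They were searched on both strands for the C/EBP letters TTGCNNAA, the PU.1 letters AGGAAGT and the TATA letters TATAAA. The C/EBP letters occurred in 5 of the 9 windows (Ngp, Ltf, Lcn2, Mmp8 and S100a9) and in 10.8% of all 32851 promoter windows. The PU.1 letters occurred in 3 of 9 (Chil3, Mmp8, S100a8) and in 9.35% of all windows. The TATA letters occurred in 5 of 9 (Cd177, Chil3, Mmp8, S100a8, S100a9) and in 13.6% of all.
The 5 windows with a C/EBP match are shown, and Camp, with no match but beside Ngp and Ltf on the chromosome, is shown with them. Capitals mark the C/EBP letters, on either strand, and each sequence runs 5′ to 3′ along its gene. The windows are chr9:110419558-110419857 (plus strand) for Ngp, chr9:111019042-111019341 (plus strand) for Ltf, chr9:109849407-109849706 (minus strand) for Camp, chr2:32387690-32387989 (minus strand) for Lcn2, chr9:7558179-7558478 (plus strand) for Mmp8 and chr3:90695672-90695971 (minus strand) for S100a9. The matches start 138 and 11 bases before the annotated start in Ngp, 75 in Ltf, 216 in Lcn2, 19 in Mmp8 and 236 in S100a9.
Ngp: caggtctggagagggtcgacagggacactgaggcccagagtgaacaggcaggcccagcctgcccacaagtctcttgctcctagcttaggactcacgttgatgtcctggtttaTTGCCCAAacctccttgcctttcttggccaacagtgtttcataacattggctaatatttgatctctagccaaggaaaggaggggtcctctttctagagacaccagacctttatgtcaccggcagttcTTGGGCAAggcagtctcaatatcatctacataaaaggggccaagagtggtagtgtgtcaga
Ltf: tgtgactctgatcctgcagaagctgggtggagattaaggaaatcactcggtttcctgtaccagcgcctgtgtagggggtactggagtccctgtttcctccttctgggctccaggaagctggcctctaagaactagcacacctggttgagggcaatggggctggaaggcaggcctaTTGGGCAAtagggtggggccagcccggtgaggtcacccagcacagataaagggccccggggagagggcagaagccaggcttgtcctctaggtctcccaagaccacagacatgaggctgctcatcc
Camp: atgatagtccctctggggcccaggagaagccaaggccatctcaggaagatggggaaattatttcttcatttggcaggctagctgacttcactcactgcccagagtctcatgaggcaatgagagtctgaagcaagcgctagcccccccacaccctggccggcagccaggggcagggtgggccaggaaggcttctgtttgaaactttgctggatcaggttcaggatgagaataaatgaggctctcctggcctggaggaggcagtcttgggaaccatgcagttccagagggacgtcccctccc
Lcn2: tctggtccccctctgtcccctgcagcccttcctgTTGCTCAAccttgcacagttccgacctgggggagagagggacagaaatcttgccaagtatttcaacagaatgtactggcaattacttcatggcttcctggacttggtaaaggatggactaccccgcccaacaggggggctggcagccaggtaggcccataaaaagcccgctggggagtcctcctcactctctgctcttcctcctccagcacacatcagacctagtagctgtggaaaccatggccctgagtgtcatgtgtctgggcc
Mmp8: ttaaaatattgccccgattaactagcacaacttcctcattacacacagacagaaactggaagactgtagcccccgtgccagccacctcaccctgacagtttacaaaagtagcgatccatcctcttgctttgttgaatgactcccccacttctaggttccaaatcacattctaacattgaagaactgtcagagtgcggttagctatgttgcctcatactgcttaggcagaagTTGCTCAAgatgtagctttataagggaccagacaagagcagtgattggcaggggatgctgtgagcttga
S100a9: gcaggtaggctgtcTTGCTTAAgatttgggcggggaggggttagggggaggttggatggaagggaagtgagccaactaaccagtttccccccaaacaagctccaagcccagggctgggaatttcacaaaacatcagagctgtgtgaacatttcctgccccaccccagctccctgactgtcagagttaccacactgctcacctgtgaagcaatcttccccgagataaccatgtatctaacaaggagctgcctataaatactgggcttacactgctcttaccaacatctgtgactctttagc
A match describes the letters in the window. Binding was not measured.

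The values are MAS5 intensities, summarised and scaled per array by the authors so that the trimmed mean was 500 on every array, and they were read here as log2(value + 16). Differences on that scale understate the change of dim probe sets. Each value comes from 1 array of 1 mouse, and no count or depth underlies it. The number of arrays limits the precision of group means and correlations. A whole spleen was measured, so fewer cells of a type and less RNA per cell cannot be told apart. Il1rn, the gene of the title, was dim, at 4.85, 6.65 and 7.48 (lowest, median and highest log2 level) in ART mice and 5.44, 6.49 and 7.62 in NON mice, a difference of -0.04 (SE 0.20, limma adjusted p = 0.941). This probe set does not tell the genotype of a mouse. The spleen label was checked with B cell, T cell, red pulp macrophage and erythroid markers, of which 8 of 9, 9 of 10, 8 of 8 and 10 of 12 listed genes passed the filter. Passing the filter alone, at a mean log2 of 6.49, does not identify a tissue. The mean log2 level of the tested markers had a median over ART mice of 12.18, 9.91, 11.67 and 13.15. Over NON mice it was 12.07, 9.996, 11.74 and 13.11. Pancreas acinar transcripts, 4 of 10 listed genes tested, stood at a mean log2 level of 13.5 in NON replicate 5, 12.9 in ART replicate 8 and 11.9 in NON replicate 6, against 7.93 or less in every other array. Spiked-in hybridisation controls fell into 3 clusters of arrays: A with 9 ART and 4 NON arrays, B with 6 and 10, and C with 3 and 4. The labels name no batch, so these are called control clusters here.

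No gene of the 10 passed the test of ART against NON spleens, and each of them varied by 2.91-fold or more in intensity among the mice of either group. Averaged over 18 mice, the log2 differences ran from -0.02 for Ltf to 0.23 for Mmp8, and 9 of 10 were positive. Among all 12427 genes tested 49.4% were positive. Because the 10 genes vary together, their signs are not separate observations. Medians gave no such lean. For S100a8, Ngp, Camp, Ltf, Chil3 and Cd177 the ART median lay below the NON median. For S100a9, Lcn2, Mmp8 and Mmp9 it lay above. The median difference over the 10 genes was 0.08, against -0.002 over all genes. limma called 0 of the 10 at an adjusted p of 0.05, and the background was 0.0481%, or 13 of 27022 probe sets called. At an unadjusted p under 0.05 it found 0 of the 10, the lowest being 0.472, against 15.7% of all probe sets. A rank-sum test also called 0.

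**Figure D1:**
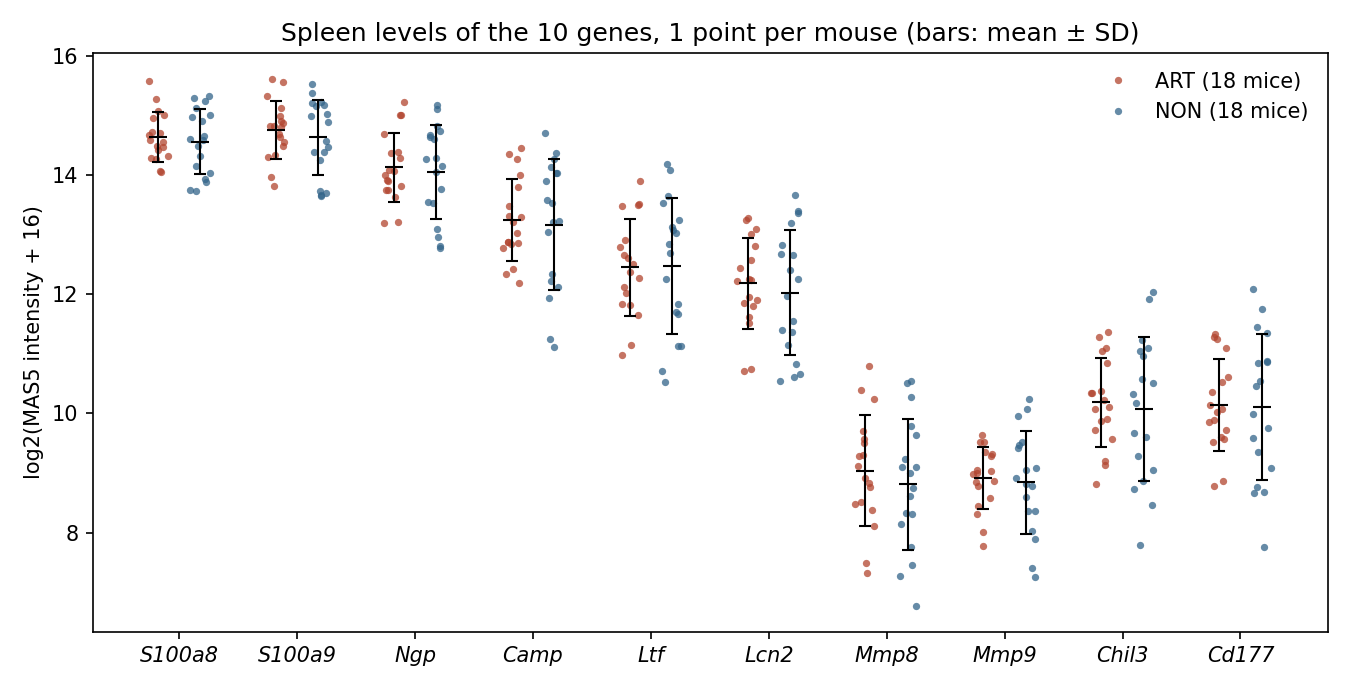
Log2(MAS5 intensity + 16) of each gene's representative probe set (vertical axis) for the 10 genes (horizontal axis), 1 point per mouse, 18 ART and 18 NON mice, with bars for the mean and SD. The groups overlap for every gene, and the SD is larger in NON than in ART mice for all 10 genes, by ratios of 1.18 to 1.66.

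The calprotectin pair had the narrowest range and was also the brightest of the 10 genes. Intensities of S100a8 and S100a9 reached 49070 and 49773, where the highest value of the series was 67960. Whether the signal of such bright probe sets flattens, and its part in the narrow range, was not tested. S100a8 had a lowest, median and highest log2 level of 14.04, 14.56 and 15.58 in ART mice and 13.73, 14.60 and 15.32 in NON mice. Its intensity in the highest mouse was 2.91 times that in the lowest in ART and 3.01 times in NON. The groups overlapped, with 5 of 18 NON mice below the lowest ART mouse, and the difference of means was 0.08 (SE 0.15, limma adjusted p = 0.825). S100a9, its partner, lay at 13.81, 14.81 and 15.60 in ART mice and 13.65, 14.73 and 15.52 in NON mice. The difference of S100a9 was 0.13 (SE 0.18, limma adjusted p = 0.757), and 10 of 18 ART mice were above the NON median.

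The antimicrobial proteins of the secondary granules spread more widely. Ngp, a granule protein related to the cathelicidins and cystatins, had log2 levels of 13.20, 14.03 and 15.23 in ART mice and 12.78, 14.21 and 15.18 in NON mice. Camp, the cathelicidin precursor of a membrane-active peptide, lay at 12.19, 13.12 and 14.45 in ART and 11.12, 13.38 and 14.70 in NON. For both genes the NON mice reached lower than any ART mouse, while the upper ends lay close together. The intensity of Camp spanned 4.80-fold in ART mice and 11.99-fold in NON mice. Group means differed by 0.07 (SE 0.22, limma adjusted p = 0.8999) for Ngp and 0.08 (SE 0.28, limma adjusted p = 0.925) for Camp.

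Ltf and Lcn2 encode the granule proteins that compete with bacteria for iron, lactoferrin by binding iron itself and lipocalin 2 by binding bacterial siderophores. Ltf had log2 levels of 10.99, 12.44 and 13.90 in ART mice and 10.53, 12.76 and 14.18 in NON mice, a 7.60-fold and a 12.7-fold range of intensity. Lcn2 lay at 10.71, 12.23 and 13.28 in ART and 10.55, 12.11 and 13.66 in NON. Their differences had opposite signs and were small beside the spread, at -0.02 (SE 0.31, limma adjusted p = 0.986) for Ltf and 0.15 (SE 0.29, limma adjusted p = 0.825) for Lcn2. Only 6 of 18 ART mice were above the NON median of Ltf, although the means were nearly equal.

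The metalloproteinases break down extracellular matrix, Mmp8 as the neutrophil collagenase and Mmp9 as gelatinase B. Mmp8 lay at 7.33, 9.02 and 10.80 in ART mice and 6.78, 8.88 and 10.55 in NON mice. The range of intensity was 12.2-fold in ART mice, the widest of the 10 genes there, and 15.8-fold in NON mice. Its difference of 0.23 (SE 0.32, 95% interval -0.41 to 0.87, limma adjusted p = 0.753) was smaller than its own standard error. It was 0.085 with the control cluster as a block, 0.087 with the Gapdh ratio as a covariate and 0.13 without ART replicate 5, and 0.11 to 0.33 with any 1 array left out. Mmp9 had levels of 7.79, 8.99 and 9.64 in ART mice and 7.25, 8.87 and 10.25 in NON mice, with a difference of 0.06 (SE 0.22, limma adjusted p = 0.921). Its SD was 0.52 in ART and 0.86 in NON mice, and NON mice lay outside the ART range at both ends. The second Mmp9 probe set had SDs of 0.75 and 1.24 and a difference of 0.15 (SE 0.32, limma adjusted p = 0.849), so both probe sets gave the same order of spread and no call.

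Chil3 encodes Ym1, a chitinase-like lectin without chitinase activity that mouse neutrophil precursors and alternatively activated macrophages make, and Cd177 a GPI-anchored protein of granules and neutrophil surface. Chil3 lay at 8.82, 10.16 and 11.37 in ART mice and 7.79, 10.26 and 12.04 in NON mice. Cd177 lay at 8.78, 10.06 and 11.33 in ART and 7.76, 10.22 and 12.09 in NON. The NON range enclosed the ART range for both genes, and intensities spanned 20.4-fold for Chil3 and 21.6-fold for Cd177 in NON mice against 6.07-fold and 6.03-fold in ART mice. The lowest NON mouse for both genes was replicate 5, the array with the most pancreas transcripts, and without it the ranges were 12.4-fold and 11.1-fold. Group means differed by 0.11 (SE 0.31, limma adjusted p = 0.894) for Chil3 and 0.03 (SE 0.32, limma adjusted p = 0.973) for Cd177.

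Spread between mice was larger in NON than in ART for all 10 genes as an SD, and no gene passed the test of that difference. The ratio of SDs had a median of 1.38 and ran from 1.18 (Mmp8) to 1.66 (Mmp9), while over all genes the median ratio was 0.962 and 44.9% of genes had the larger SD in NON mice. Of the lists read below, 7 of 9 primary granule and precursor genes had the larger SD in NON mice (median ratio 1.495). So did 11 of 14 other granule and secreted proteins (1.19) and 7 of 7 megakaryocyte and platelet genes (1.45). Only 4 of 13 neutrophil surface receptors (0.835), 1 of 10 erythroid genes (0.662) and 0 of 8 red pulp macrophage genes (0.653) did. The 10 genes vary together, as shown next, so their 10 ratios are not separate observations. limma on absolute deviations from the group median called 0 of the 10, with unadjusted p from 0.0688 to 0.532, 0 of them under 0.05, and adjusted p from 0.683 to 0.919. The background was 0%, since 0 of 27022 probe sets were called, and 2071 (7.66%) had an unadjusted p under 0.05. Compared with other genes the members varied widely: at most 27.6% of all genes in ART and 10.9% in NON mice had an SD as large as any given member.

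The 10 genes varied together from mouse to mouse in both groups. Over 45 gene pairs the median Pearson r was 0.906 in ART mice (0.653 for Camp and Mmp8 to 0.988 for Ltf and Cd177) and 0.929 in NON mice (0.806 for Camp and Mmp9 to 0.985 for Lcn2 and Cd177). The median Spearman rho was 0.889 and 0.922. Every pair passed in both groups (n = 18 mice, two-sided permutation tests with 100000 permutations, adjusted over 90 pairs, highest adjusted p 0.00325 in ART and 6.585e-05 in NON for r, 0.00168 and 0.0001482 for rho). The smallest p these permutations can give is 1e-05. Without the 2 mice farthest from the median of the first gene of a pair, r ran from 0.608 to 0.985 in ART and from 0.770 to 0.994 in NON mice. For all 77208951 pairs of tested genes the median r was 0.0038 and 0.0062, and 2.63% of them in ART and 0.175% in NON mice reached the lowest value among the 10 genes. The first principal component held 89.6% of the variance of the 10 genes in ART mice and 92.7% in NON mice.

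**Figure D2:**
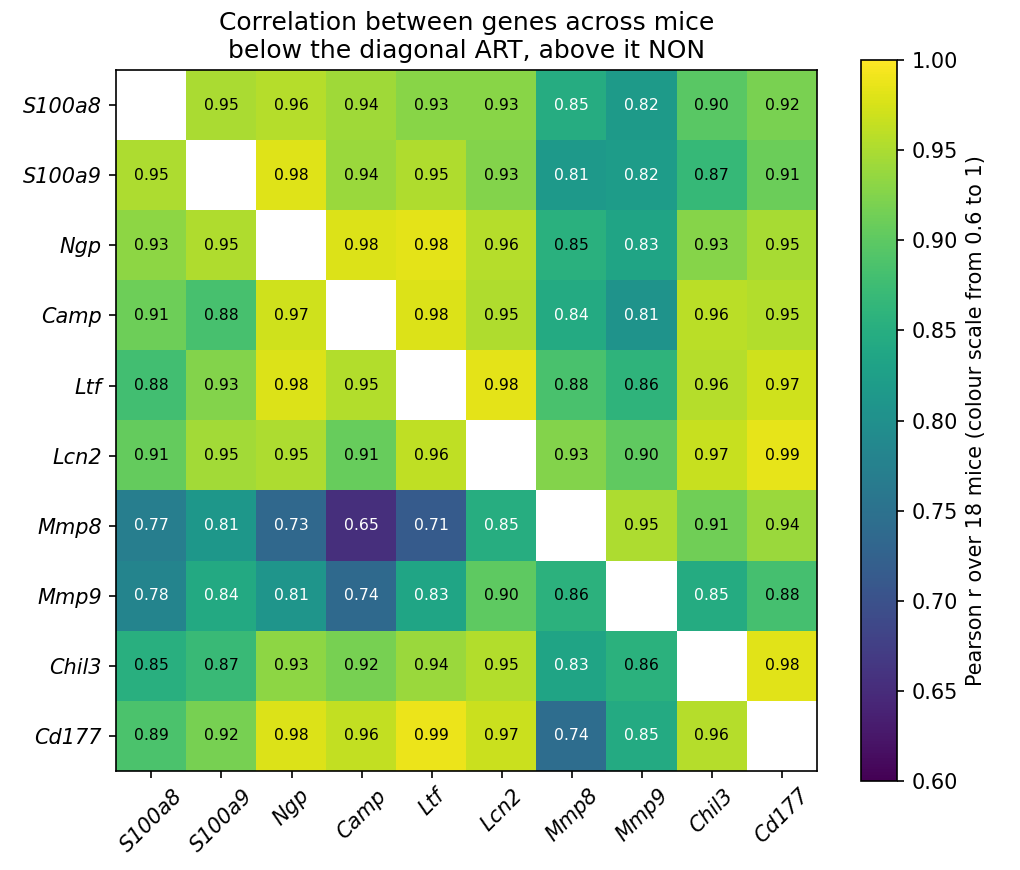
Pearson r between each pair of genes (rows and columns) over 18 ART mice below the diagonal and 18 NON mice above it, on a colour scale from 0.6 to 1. The darkest cells are those of Mmp8 and Mmp9 with the other genes, down to 0.653 for Camp and Mmp8 in ART mice.

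The correlations were read by the genes' roles. The 6 genes other than calprotectin and the metalloproteinases correlated with each other at 0.907 to 0.988 in ART and 0.928 to 0.985 in NON mice. S100a8 with S100a9 gave 0.950 in ART mice and 0.949 in NON mice. Mmp8 with Mmp9 gave 0.856 and 0.950. The metalloproteinases correlated less closely with the 6 genes, with a median of 0.821 in ART and 0.870 in NON mice. No test compared these correlations with each other.

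Ordering the mice by their mean z-score over the 10 genes, where each gene was scaled to its mean and SD over all 36 arrays, set them in a row in each group. ART scores ran from -1.39 (replicate 14) to 1.30 (replicate 1), with a median of -0.09. NON scores ran from -1.83 (replicate 5) to 1.66 (replicate 12), with a median of 0.18. The largest gap between neighbours was 22.3% of the range in ART mice, where replicates 14 and 18 lay below it, and 11.2% in NON mice. Whether these are separate sets of mice was not tested. Single mice held the extremes of many genes. ART replicate 14 was lowest in its group for 7 of the 10 genes and replicate 18 for the other 3, and NON replicate 12 was highest for 7. ART replicate 14 also had the highest actin 3′ to 5′ log2 ratio of all arrays (1.45), a sign of RNA quality whose part in its low score was not tested. ART replicate 5 departed from the common order, with the highest Mmp8 level of its group (10.80) beside a score of 0.17.

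**Figure D3:**
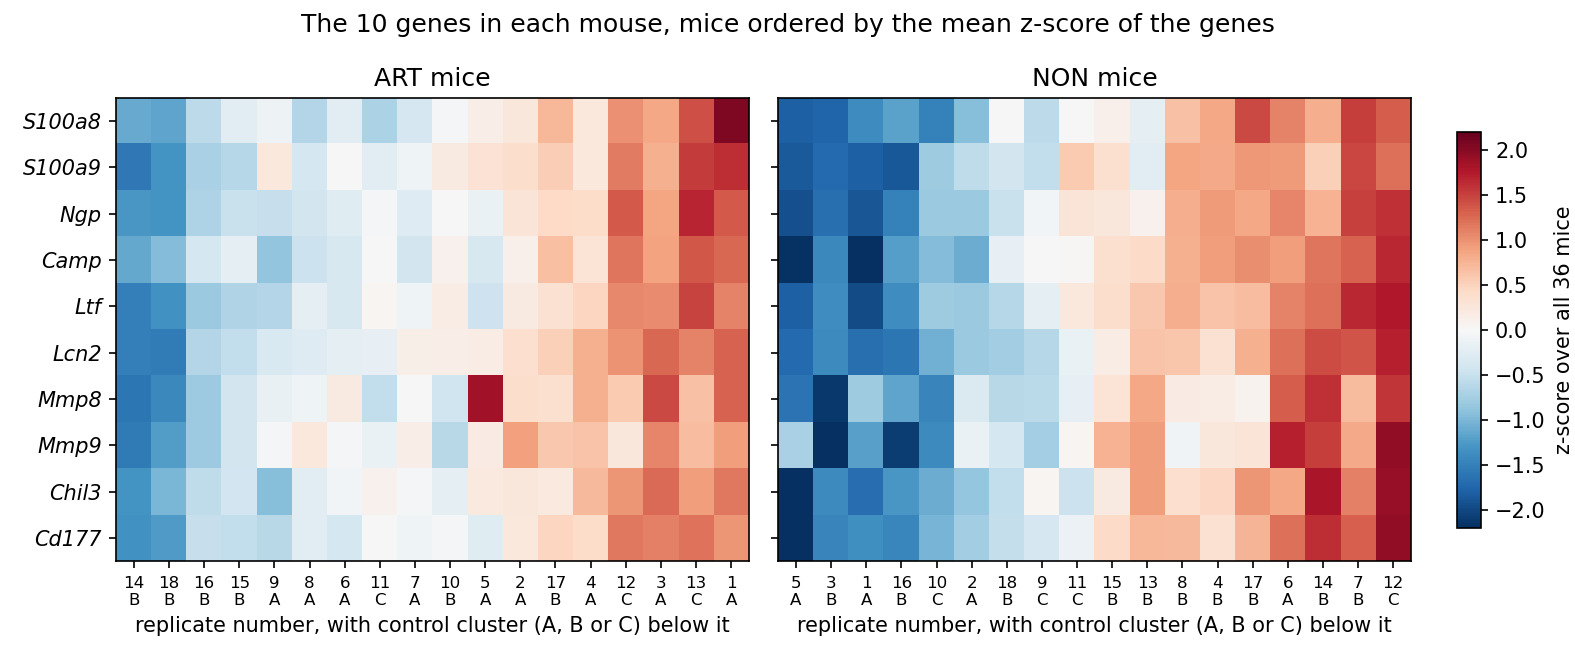
Z-score over all 36 mice (colour) of each of the 10 genes (rows) in each mouse (columns), ART left and NON right, mice ordered by their mean z-score, with replicate number and control cluster below. Most columns hold shades of one sign, from the lowest mouse (scores -1.39 and -1.83) to the highest (1.30 and 1.66), and ART replicate 5, with its high Mmp8, is an exception.

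Within the control clusters the ART minus NON difference of the 10 representative probe sets had one sign in A and C and the other in B. ART replicates 1 to 9 were all in A. In cluster A (9 ART, 4 NON) all 10 differences were positive, from 0.38 to 1.26 with a median of 0.95. In cluster B (6 ART, 10 NON) all 10 were negative, from -0.88 to -0.30 with a median of -0.63. In cluster C (3 ART, 4 NON) all 10 were positive, from 0.21 to 0.69 with a median of 0.53. The second Mmp9 probe set, not among the 10, had differences of 0.88 (SE 0.55) in A and -0.48 (SE 0.44) in B. In C its difference was -0.05 (SE 0.51), a sign opposite to that of the 10. The 10 genes vary together, so 10 equal signs are not separate observations. limma called 0 of the 10 in any cluster, where the lowest adjusted p values of A, B and C were 0.390, 0.237 and 0.9998 and the backgrounds were 0%, 2.73% and 0% of probe sets called. At an unadjusted p under 0.05 there were 7, 1 and 0 of the 10 genes, against 11.6%, 20.6% and 3.7% of all probe sets.
The test of the difference between clusters itself, a group by cluster interaction in limma, called 0 of 10 (adjusted p 0.184 to 0.575) against a background of 0.037%. At an unadjusted p under 0.05 it took 7 of 10, where 16.7% of all probe sets did. Single mice moved these values. The median difference in cluster A was 0.51 without NON replicate 5, 1.57 without NON replicate 6 and 1.26 without the 3 arrays with pancreas transcripts. In cluster C, leaving out NON replicate 10 turned 2 of the 10 signs and gave a median of 0.24, leaving out ART replicate 13 gave 0.28, leaving out ART replicate 11 gave 0.85 and leaving out NON replicate 12 gave 1.01. In cluster B the median stayed between -0.82 and -0.47 whichever array was left out.
The Gapdh 3′ to 5′ log2 ratio, a sign of RNA quality, had a median of -0.43 in A, 0.015 in B and -0.13 in C arrays, and its part in these values was not tested.
The level of the 10 genes did not pass a test of the clusters (limma F with group as a term, 0 of 10 called, adjusted p 0.191 to 0.880), whereas 48.1% of all probe sets did. The genes also kept their correlation inside the clusters: with group means taken out, the median r was 0.940 over the 13 arrays of A, 0.942 over the 16 of B and 0.961 over the 7 of C.

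**Figure D4:**
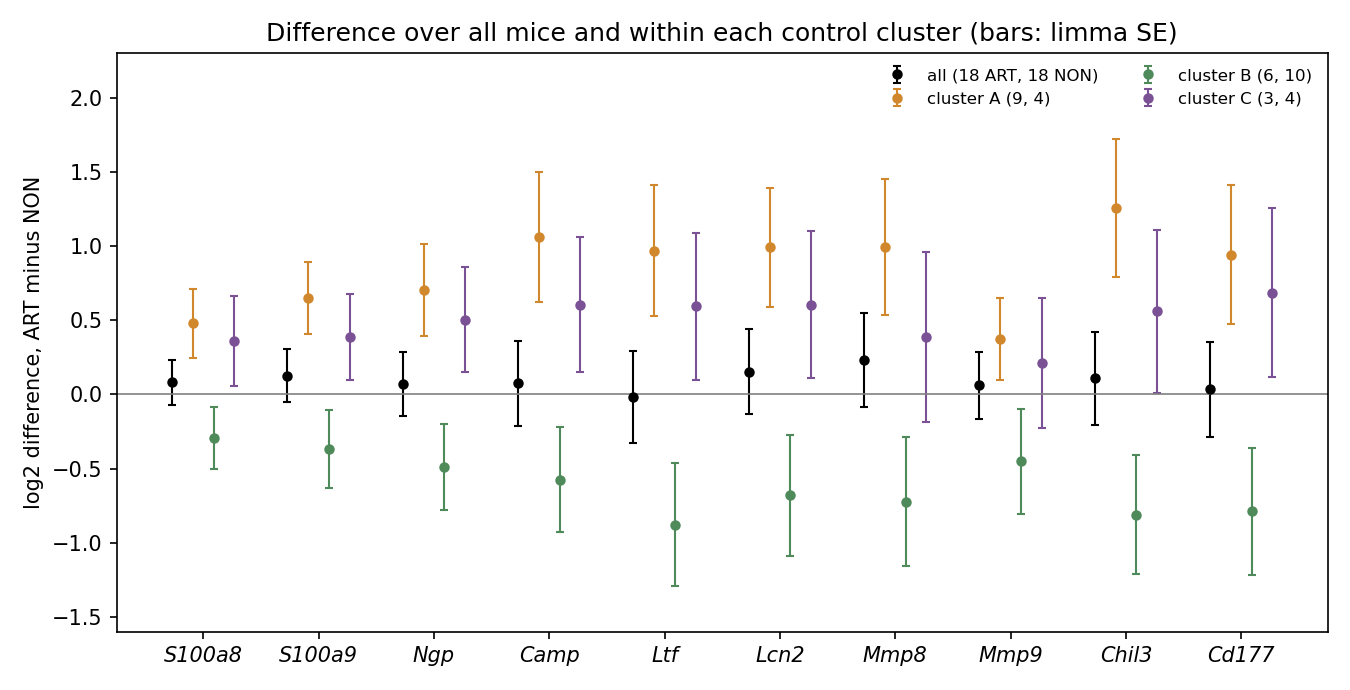
Log2 difference, ART minus NON (vertical axis), of each gene's representative probe set over all 36 mice and within control clusters A, B and C. Bars show the limma SE. All 10 differences are above 0 in A and C and below 0 in B, and the pooled values lie between -0.02 and 0.23.

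Genes outside the 10 were ranked by the lower of their ART and NON correlations with the score, over 18 mice in each group, given as a description since all genes share the arrays. The 12 nearest were Fcnb, Anxa1, Wfdc21, Trem3, Elane, Mpo, Ctsg, Prtn3, Ms4a3, Pygl, Olfm4 and Fpr2. Of these, 11 stand on the neutrophil lists and 6 on the list of primary granule and precursor genes. That list holds 9 tested genes. The lists of other granule proteins, surface receptors and NADPH oxidase subunits hold 14, 13 and 5. The lists were chosen with earlier results of these data known, so the overlap is a description and no test. Fcnb, a ficolin that recognises microbial sugars, came closest with r = 0.969 in ART and 0.975 in NON mice. After Anxa1, Wfdc21 and Trem3 the primary granule enzymes followed in a block. Elane, neutrophil elastase, had 0.915 and 0.966, Mpo, myeloperoxidase, 0.914 and 0.970, Ctsg, cathepsin G, 0.911 and 0.966, and Prtn3, proteinase 3, 0.909 and 0.981. Mpo ranged from 11.26 to 13.94 in log2 level in ART mice and from 10.43 to 14.21 in NON mice. Only 22 of 12417 other genes reached 0.8 in both groups, and 9 reached 0.9. At the other end Rapgef2, Cdc42se2, Gramd1a, Evl and Zmynd11 were lowest, and 0 genes were at or below -0.8 in both groups. The median over all genes was -0.02 in ART and -0.08 in NON mice.

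Other genes of the neutrophil were read by lists, and limma called 0 genes in each of them. Primary granule and precursor genes (9 of 12 tested) had a median r with the score of 0.909 in ART and 0.966 in NON mice, with 6 positive and 3 negative ART minus NON differences. Serpinf1 and Ctsc had the smallest p, with differences of -0.54 (SE 0.16) and 0.27 (SE 0.09), and neither followed the score (r = -0.27 and 0.02 in ART mice). Other granule and secreted proteins (14 of 20 tested) had medians of 0.634 and 0.742, with 10 positive and 4 negative differences. Serpinb1a, an inhibitor of the neutrophil serine proteases, had a difference of 0.20 (SE 0.07).
Surface receptors (13 of 16 tested) correlated less closely with the score, at a median of 0.556 in ART and 0.465 in NON mice. Csf3r, the G-CSF receptor, lay at 8.73 to 10.81 in ART and 8.86 to 10.40 in NON mice, and Cxcr2, the receptor for neutrophil-attracting chemokines, at 5.47 to 8.89 and 6.34 to 8.69. Of the 13 receptors 9 had the larger SD in ART and 4 in NON mice, and the spread test called 0. Csf3r (0.70 in ART, 0.43 in NON) and Cxcr2 (0.88 and 0.66) were among the 9. Trem3 (0.51 and 0.71) was among the 4 and followed the score closely, at r = 0.94 in ART and 0.92 in NON mice. Fpr2 (0.71 and 0.59) was among the 9 and also followed the score closely, at r = 0.86 and 0.92. Il1r2 had the smallest p of the receptors, with a difference of 0.31 (SE 0.19, limma adjusted p = 0.433). The NADPH oxidase, which makes superoxide, had 5 of 6 subunits tested, median r of 0.150 and 0.104, and 4 positive differences. Its membrane subunit Cybb had the largest, 0.41 (SE 0.11, limma adjusted p = 0.093).

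Partners of the 10 proteins were tested in the same fit, with 0 called. Receptors, ligands and inhibitors (13 of 14 tested) had 7 positive and 6 negative differences and a median r of 0.285 in ART and -0.28 in NON mice. Pecam1, the binding partner of human CD177, had a difference of 0.13 (SE 0.07), and Timp2, a metalloproteinase inhibitor, -0.10 (SE 0.07). Regulators and neutrophil-attracting factors (14 of 20 tested) had 10 positive and 4 negative differences. Spi1, which encodes PU.1, had a difference of 0.26 (SE 0.08, limma adjusted p = 0.12), with r = 0.11 in ART and -0.35 in NON mice. Cebpb had 0.13 (SE 0.07), with r = 0.32 and 0.56.
Families of the 10 genes gave mixed values. Of the other S100 genes, 6 of 15 were tested, 1 with a positive difference, and their median r was -0.29 in ART and 0.20 in NON mice. Of the chitinase family, 3 of 6 were tested, and Chil1, a chitinase-like relative of Chil3, followed the score at 0.822 and 0.931. Other matrix metalloproteinases (5 of 11 tested) had median r of 0.274 and -0.39, with Mmp3 at a difference of -0.36 (SE 0.11).

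Markers of other spleen cells moved with the 10 genes to different extents, and limma called 0 of them between ART and NON. Erythroid genes (10 of 12 tested) had a median r with the score of 0.585 in ART and 0.602 in NON mice, and all 10 were positive in both groups. Their mean log2 level per mouse ran from 11.68 to 13.51 in ART and from 12.59 to 13.54 in NON mice. Cell cycle genes (11 of 12 tested) had 0.497 and 0.687, again positive for all 11 in both groups. Megakaryocyte and platelet genes (7 of 8 tested) had 0.350 in ART and 0.783 in NON mice. B cell genes went the other way, with 7 of 8 negative in both groups and medians of -0.47 and -0.69. T cell genes had 8 of 9 negative in both groups and medians of -0.29 and -0.41. Monocyte genes had 0.450 and 0.132, mast cell and basophil genes 0.518 and 0.280, red pulp macrophage genes 0.280 and -0.16, eosinophil genes 0.193 and 0.010, and pancreas genes 0.004 and -0.14. The mean z-score of a list's tested genes gave some lists another order. Its r with the score was 0.738 in ART and 0.703 in NON mice for mast cell and basophil genes. For monocyte genes it was 0.749 and 0.455, and for erythroid genes 0.652 and 0.699. Mean B cell levels per mouse spanned 11.61 to 12.58 in ART and 11.68 to 12.37 in NON mice, and the mean of the 10 genes spanned 10.77 to 12.95 and 10.39 to 13.32. The part of these cell types in the range of the 10 genes was not tested.

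**Figure D5:**
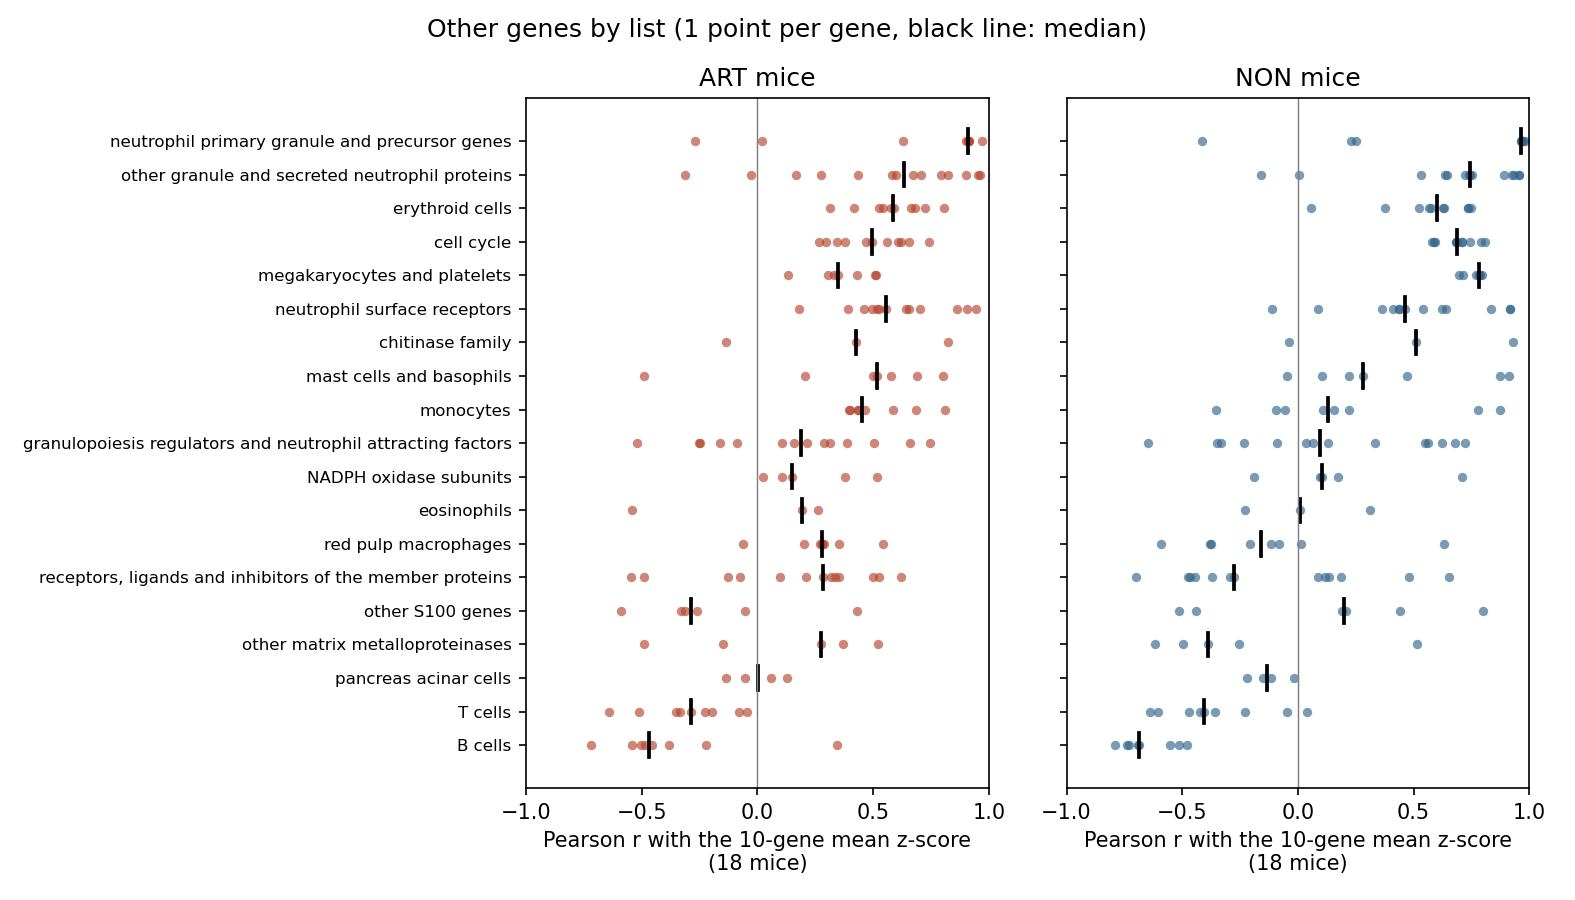
Pearson r of each tested gene with the mean z-score of the 10 genes (horizontal axis) by list (rows), 1 point per gene, over 18 ART mice on the left and 18 NON mice on the right, with a black line at each list's median. Primary granule and precursor genes have the highest medians, 0.909 and 0.966, and B cell genes the lowest, -0.47 and -0.69.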

How the data were processed

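Total RNA of 36 spleens was extracted with Trizol, biotin-labelled and hybridised to Affymetrix mouse arrays, per the labels. The deposited microarray intensity values are MAS5 values of the authors, as the submitters' processing notes name that tool without a version, and every array has a trimmed mean of 500 with 2% taken off each end. Groups and replicate numbers come from the sample titles, and p-values assume that each array is a separate mouse.

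Values were read as log2(value + 16). The 64 control probe sets and those below the 40th percentile of the mean (6.49) were left out, leaving 27022. Genes were named from the platform annotation: 34945 probe sets name 1 gene (34741 matched the RefSeq table), 932 several, and 9160 are not listed. Where several probe sets name a gene, the brightest on average stands for it. limma 3.58.1 in R 4.3.3 (trend, two-sided, Benjamini-Hochberg over all tested probe sets, threshold 0.05) compared groups and, on absolute deviations from group medians, their spread. Control clusters are Ward clusters (3) of 18 hybridisation-control probe sets, each array centred. Correlations of genes across mice and their permutation tests used numpy 2.4.6, with the ranks for Spearman rho from scipy 1.17.1. The code was tested on simulated data. The members and the lists were chosen with earlier results of these data known. All 10 members are named, then up to 4 genes of each list with the smallest p, the 12 most and 5 least similar genes, and Il1rn. Csf3r, Cxcr2 and Chil1 were named after their values were seen. Other pseudocounts, no filter, quantile normalization, no trend, control cluster or replicate block, a Gapdh covariate, a rank-sum test and each array left out were tried.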

Additional observations from a re-analysis of the deposited data

How the results depend on the processing

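limma called 0 of the 10 genes for the difference and 0 for the spread under every setting run. Apart from the fits within single control clusters, where it was 0.237 (cluster B), the lowest limma adjusted p was 0.602 for the difference and 0.609 for the spread. Over all probe sets the calls for the difference were 13, and 0 to 14 with another pseudocount, no filter, quantile normalization, no trend, the control cluster as a block, a Gapdh 3′ to 5′ covariate (2) or a rank-sum test (0), 236 (153 higher, 83 lower) without the arrays with pancreas transcripts, and 0 to 389 with 1 array left out. Signs of uncalled differences turned for Ltf with the control cluster as a block (0.049) and the Gapdh covariate (0.085), for Mmp9 under the same settings (-0.035 and -0.021), and for Cd177 without the arrays with pancreas transcripts (-0.020), a setting chosen after seeing the data. With 1 array left out the differences ran from -0.045 to 0.17 for Camp, -0.10 to 0.15 for Cd177, -0.025 to 0.22 for Chil3, -0.13 to 0.084 for Ltf, -0.032 to 0.14 for Mmp9 and -0.0031 to 0.14 for Ngp. Under the control cluster block and the Gapdh covariate the difference of Camp rose from 0.075 to 0.22 and 0.25. That of Mmp8 fell from 0.23 to 0.085 and 0.087. The causes were not tested. Median r ran from 0.892 to 0.922 in ART and 0.923 to 0.942 in NON mice with 1 array left out.

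No clear pairing of mice by replicate number was seen, though these values cannot exclude one. Over 18 numbers the correlation of deviations ran from -0.23 to 0.47, 11 were over 0.1, and 2 arrays correlated best with their own number. With the replicate block 0 members were called, at the same differences, while all-probe-set calls were 369 (271 higher, 98 lower).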
